A study of Drosophila melanogaster with 4 samples.

Results

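Drosophila genes that carry only a CG number have been annotated in the genome but have no name taken from a mutant phenotype or a studied function. This report describes the 49 such genes whose signals were higher in 40-day-old than in young flies, both in flies kept without curcumin and in flies kept with it. They are 49 of 5209 CG-named genes and of 11981 genes in all with a probe set that matched a single gene. The genes were chosen by measured values: the log2 signal on the old array had to exceed that on the young array by at least 1 (2-fold) in both diets, and both old arrays had to read at least 5.3 (a signal of 39.4), after values below 4.3 (a signal of 19.7, called the floor here) had been set to 4.3. The age differences of these genes are therefore given as a description, with no test. The selection also named 4 CG-numbered genes to be left out, and 0 of those would have passed.

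The 4 samples were whole-fly pools of the Canton-S wild-type strain of Drosophila melanogaster, each labelled as 30 males and 30 females and each read on 1 Affymetrix Drosophila Genome 2.0 array. Young flies are given as 1 to 3 days old, with day 1 in the sample titles and day 3 in the design, and old flies as 40 days old, and at each age 1 pool received food with 100 µM curcumin, the yellow polyphenol of turmeric, and 1 pool food with its solvent ethanol alone. All pools shared the strain, the larval medium and the adult sucrose-yeast food. The comparisons ask what differs between young and old flies and how curcumin feeding bears on it. The labels do not say when feeding began, so its length may differ between the ages. With 1 array per group, a difference between 2 arrays has no replicate check and no p-value, and precision is limited by the number of arrays.

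Trimmed mean signals of the arrays lay between 138.8 and 151, and 58.6% to 60.7% of probe sets reached the floor. Markers did not bear out the label for females on any array. Yp1 and Yp2, the yolk protein genes that female fat body transcribes in large amounts, read at most 28.1 and 21.5, and Yp3 between 44.0 and 58.2. Of 15 genes with a value on the yolk and ovary list, 11 were below the floor on all arrays, among them the eggshell genes Cp15, Cp16, Cp18, Cp19 and Cp38. The list summed to between 123 and 173 signal units. It also held gcm, which is not a yolk or ovary gene and is among the 11. The 12 male accessory gland markers summed to 49047 in young flies without curcumin, 44312 with it, 25593 in old flies without it and 45697 with it. How many females the pools held was not tested, and the results below describe RNA with hardly any signal of yolk or eggshell genes. Muscle and hemocyte lists moved with age. The 10 muscle markers summed to 15286, 26992, 7389 and 9781 in the same order of pools, so they also differed with curcumin in young flies. The 12 hemocyte markers summed to 3693, 3394, 4571 and 4246, of which atilla alone gave 1744, 1680, 1835 and 1704. Median age differences without and with curcumin were -0.04 and -0.06 log2 for the eye list and -0.002 and -0.20 for brain and nerve. Of the 11 hemocyte markers that reached the floor on an array, 4 were at least 2-fold higher in old flies without curcumin and 4 with it. The shares of all genes compared were 4.58% and 4.22%. PPO1, a prophenoloxidase gene, was at least 2-fold lower without curcumin (306 and 148), and He was below the floor on all arrays. The part of these lists in the signals of the 49 genes was not tested. In such bulk RNA, more cells of a type and more RNA per cell cannot be told apart.

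As background, the products of many CG-numbered genes can still be placed in a family by their sequence. The 49 genes include relatives of gut and cuticle chitin-binding proteins, which line the midgut or form exoskeleton, of membrane aminopeptidases, which trim peptides in the gut and elsewhere, and of enzymes that attach or remove sugars on secreted proteins. Others belong to families of lipid enzymes, small secreted inhibitors and RNA helicases. For the rest no family is stated here because none could be given with certainty.

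Signals are quoted below in a fixed order: young without curcumin, young with curcumin, old without curcumin, old with curcumin. They are MAS5 signals in linear units, and the fold or log2 differences were computed after the floor. A signal is a property of its probe set, so no gene's level is set against another gene's. A gene that reached the floor on 2 or more of the 4 arrays is called measured, and a difference between a pair of arrays is counted over genes that reached it on either of them.

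Without curcumin the 49 genes were 2.02-fold to 8.06-fold higher in old flies, with a median log2 difference of 1.36, and with curcumin they were 2.06-fold to 7.62-fold higher, with a median of 1.65. Among all genes compared, 4.58% of 9710 were at least 2-fold higher with age without curcumin and 4.22% of 9668 with it. Since these contrasts selected the genes, nothing is read from the comparison. Only 5 genes were at least 4-fold higher in both diets. All 49 reached the floor on both old arrays, as the selection required, while 3 were below it on both young arrays and 3 on 1 young array, so a difference for those 6 is a lower bound wherever a young array was below the floor. The same thresholds applied to genes with other names passed 120 genes. This was 2.15% of the 5571 measured genes with other names, against 1.24% of the 3965 measured CG-named ones.

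**Figure D1:**
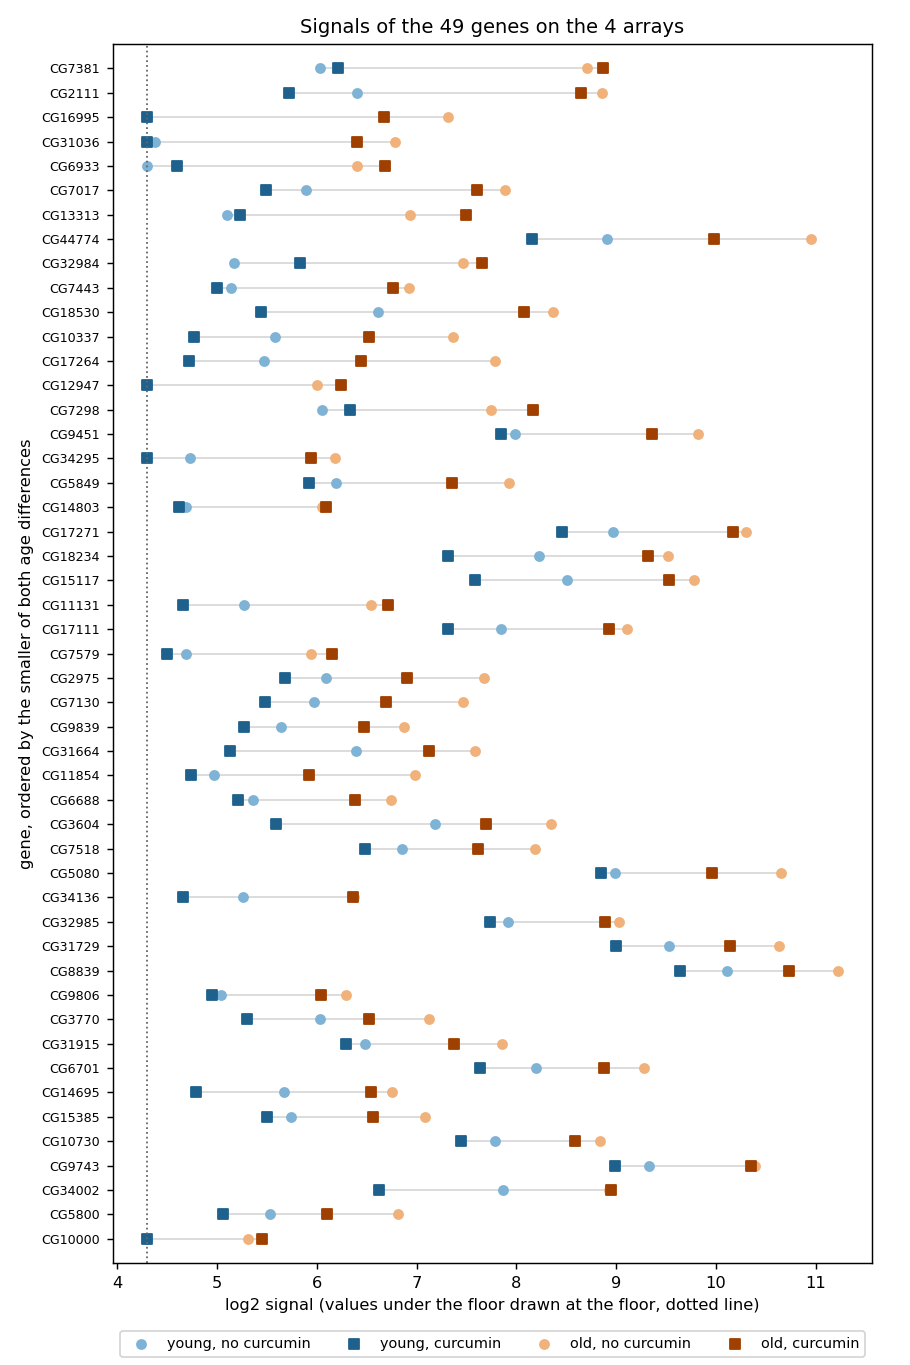
Log2 signals of the 49 genes (rows, ordered by the smaller of the age differences in both diets) on the 4 arrays. Circles are arrays without and squares arrays with curcumin, blue is young and orange old; values under the floor of 4.3 are drawn on it. In each row both old arrays lie to the right of both young arrays.

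The 5 genes past 4-fold in both diets were CG7381, CG2111, CG16995, CG31036 and CG6933. CG7381, for which no family is stated here, read 65.4, 74.4, 419 and 466. Both old arrays stood far above both young ones, 6.41-fold without curcumin and 6.27-fold with it, and its curcumin differences were small at either age. CG2111, of the M1 family of metallo-aminopeptidases, read 84.4, 52.6, 465 and 401, which is 5.50-fold and 7.62-fold higher in old flies. CG16995, of the CAP family of cysteine-rich secreted proteins, was below the floor on both young arrays and read 159 and 102 in old flies without and with curcumin. Its age difference was at least 8.06-fold in the first diet and 5.17-fold or more in the second, and the old array with curcumin was the lower of the old pair. CG31036 read 20.8 in young flies without curcumin, was below the floor in young flies with it, and read 110.0 and 84.6 in old flies. That is 5.28-fold higher without and at least 4.29-fold higher with curcumin. CG6933 is described with its relatives below.

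**Figure D2:**
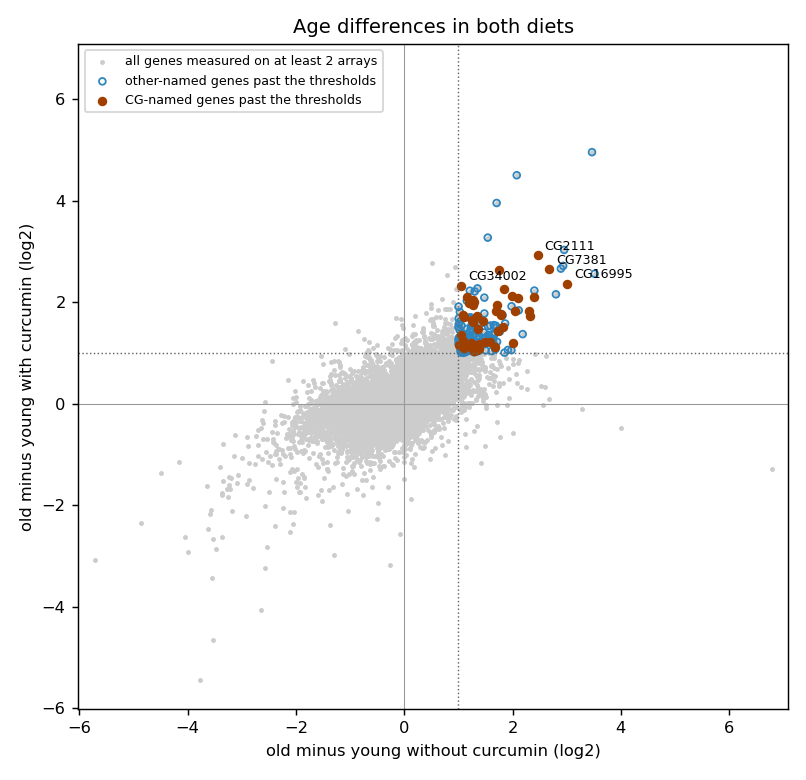
Old minus young log2 difference without curcumin (horizontal) against that with curcumin (vertical), for all measured genes (grey), the 120 other-named genes past the thresholds (open blue) and the 49 CG-named genes (brown). Dotted lines mark a difference of 1; CG34002 lies near the vertical line, at 1.05 without and 2.32 with curcumin.

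Chitin-binding proteins formed a group by position. CG7298, CG7017 and CG6933 lie in a row of such genes on chromosome arm 3L, in the order obst-F, CG7298, CG7290, CG6996, CG7017, CG6933, CG17145 and CG17147 in the Release 6 gene table. CG7298 read 66.1, 80.7, 214 and 288, and CG7017 read 59.5, 44.9, 236 and 195. The old arrays were 3.23-fold and 3.57-fold higher for CG7298, without and with curcumin, and 3.97-fold and 4.34-fold higher for CG7017. CG6933 was under the floor on the young array without curcumin and read 24.3 on the one with it, then 84.4 and 103 in old flies, at least 4.28-fold and 4.23-fold higher. The other 5 genes of the row were hardly detected: obst-F, CG7290, CG17145 and CG17147 were below the floor on all 4 arrays, and CG6996 reached at most 24.0, in old flies with curcumin. With curcumin, CG7298 and CG6933 read higher at both ages (log2 0.29 and 0.43 for CG7298, at least 0.30 and 0.28 for CG6933) and CG7017 lower (-0.41 and -0.28). The 15 midgut digestive markers moved the other way with age, from a summed signal of 47281 in young to 19572 in old flies without curcumin and from 52134 to 39158 with it. Of these markers, 11 without and 8 with curcumin were at least 2-fold lower in old flies, where 9.45% and 1.86% of all genes compared were. The part of the midgut markers in the chitin-binding signals was not tested.

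**Figure D3:**
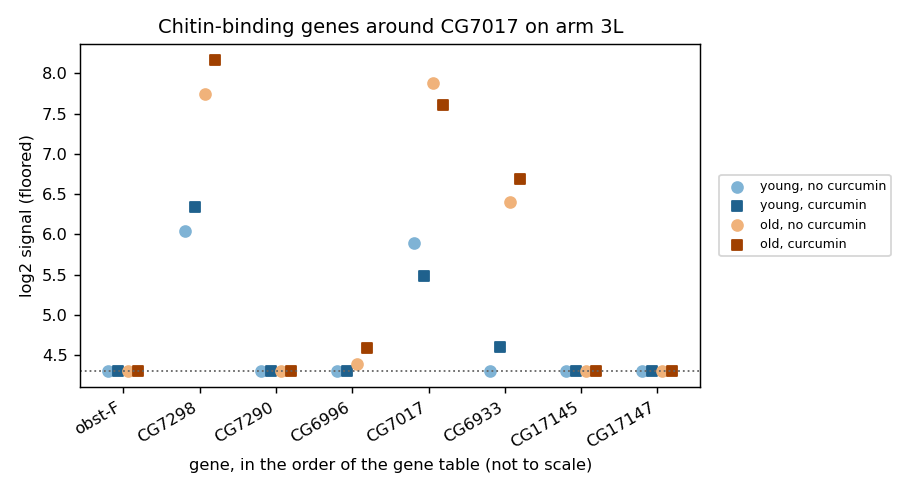
Log2 signals on the 4 arrays of 8 neighbouring chitin-binding genes on arm 3L, in gene order and not to scale; the dotted line is the floor of 4.3. CG7298, CG7017 and CG6933 have both old arrays above both young arrays, and the genes around them stay at or near the floor.

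Aminopeptidases contributed 3 genes. Beside CG2111, CG9806 read 32.9, 30.9, 78.5 and 65.9, 2.39-fold and 2.13-fold higher in old flies. CG9806 and CG2111 lie on the X chromosome with 1 gene, X11Lbeta, between them. CG5849, on arm 3R, read 73.1, 60.7, 244 and 164, 3.33-fold and 2.70-fold higher. For all 3 both old arrays were well above both young arrays, and within each age the array with curcumin was the lower. Near CG5849 stand the aminopeptidase genes CG31233 and CG31198, which did not share the pattern. CG31233 read 608, 524, 105 and 324, 5.80-fold lower in old flies without curcumin and 1.62-fold lower with it. CG31198 read 1320.4, 1072, 724 and 1479, so it was lower in old flies without curcumin and higher with it.

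Genes of sugar transfer and removal made up 5 of the 49. CG7579 and CG10000, which the gene table also lists as dppGalNAcT12 and dppGalNAcT10, belong to the polypeptide GalNAc-transferases that start mucin-type O-glycans. CG7579 read 25.7, 22.6, 61.5 and 71.0, close to the floor in young flies and 2.39-fold and 3.14-fold higher in old flies. CG10000 was under the floor on both young arrays and read 39.8 and 43.7 on the old ones. Its bounds of at least 2.02-fold without and 2.22-fold with curcumin make it the gene nearest to the threshold. CG2975, listed as dC1GalT4 of the core 1 galactosyltransferases, which extend those glycans, read 68.2, 51.1, 204 and 119.5. It was 3.00-fold higher in old flies without curcumin and 2.34-fold with it. CG31915, a relative of the collagen galactosyltransferases, read 89.2, 78.2, 232 and 166, 2.60-fold and 2.12-fold higher. CG15117, of the beta-glucuronidases, which remove glucuronic acid from glycans, read 364, 193, 879 and 738. Its age difference was larger with curcumin (3.83-fold) than without (2.41-fold), and the young array with curcumin was the lowest.

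Among genes of lipid families, CG18530, of the acid lipases, read 98.0, 43.4, 329 and 269.6. It was 3.36-fold higher with age without curcumin and 6.21-fold higher with it, and the young array with curcumin stood lowest. CG9743, of the fatty acid desaturases, read 645, 508, 1341 and 1307, 2.08-fold and 2.57-fold higher. CG8839, of the amidase family that includes fatty acid amide hydrolases, read 1108, 796, 2389 and 1704, and CG31729, a P4-type ATPase of the family that moves phospholipids across membranes, read 740.3, 511, 1589 and 1127. Both genes had nearly equal age differences in the diets, 2.16-fold and 2.14-fold for CG8839 and 2.15-fold and 2.21-fold for CG31729. CG11854, of the takeout family of secreted lipid-ligand carriers, read 31.4, 26.6, 127 and 60.8. The old array without curcumin stood apart for this gene, 4.04-fold above the young array, against 2.28-fold with curcumin.

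Secreted inhibitors and protease relatives were represented by CG3604, a Kunitz-type protease inhibitor, and CG34295, listed in the gene table as the serine protease homologue SPH253. CG3604 read 145, 48.1, 325 and 207, 2.24-fold higher with age without curcumin and 4.29-fold with it. CG34295 read 26.5 in young flies without curcumin, was below the floor with it, and read 72.4 and 61.3 in old flies, 2.73-fold and at least 3.11-fold higher. CG10000 lies near it on 3R, and between them stand aqrs and CG9997, protease homologues of the male seminal fluid that take part in sex peptide storage. Neither passed the thresholds: aqrs read 559.5, 493, 322 and 612 and CG9997 read 546, 435, 389.7 and 571. Both were lowest in old flies without curcumin.

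RNA helicases and a hairpin RNA locus formed a further small group. CG5800, a DEAD-box helicase listed as DmRH14, read 46.1, 33.4, 113 and 68.8, 2.44-fold and 2.06-fold higher in old flies. CG6701, a helicase related to Armitage of the piRNA pathway, read 292, 199, 620.3 and 469.8, 2.12-fold and 2.36-fold higher. CG44774 is the current entry for CG4068 and hp-CG4068, a hairpin transcript known as a source of endogenous small interfering RNAs, and it read 479, 285, 1984 and 1011. It was 4.14-fold and 3.55-fold higher in old flies and lower with curcumin at both ages (log2 -0.75 and -0.97). Its probe set is of the type marked x, whose probes can match other sequences, so which transcript gave the signal is uncertain. CG8839, CG5080 and CG34002 have probe sets of the type marked s, which can be shared by related transcripts.

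A further 4 genes could be placed in a family. CG9451, of the histidine acid phosphatases, read 254, 230.5, 901 and 658, 3.54-fold and 2.85-fold higher. CG18234, a prolyl 4-hydroxylase relative of the enzymes that modify collagen, read 299, 159, 734 and 637, 2.45-fold and 4.00-fold higher. CG7130, a J-domain co-chaperone, read 62.7, 44.6, 176 and 103, 2.81-fold and 2.32-fold higher, and CG17271, with EF-hand calcium-binding motifs, read 499, 350.4, 1266 and 1155, 2.53-fold and 3.29-fold higher. In all 4 the lowest old signal was above the highest young signal, and the array with curcumin was the lower at each age.

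Same-family neighbours were also read for 11 families. They were listed after the values had been seen and exclude any gene that is itself among the 49, such as CG7017 beside CG6933 or CG9806 near CG2111, so how many of them passed the thresholds carries no information. The values of some are given as a description. The Kunitz-type gene CG16713, near CG3604, read 810.2, 533, 1693 and 664, higher in old flies chiefly without curcumin. The protease homologue intr, beside CG34295, read 179, 112, 294 and 304, higher on both old arrays. The acid phosphatase CG9449 next to CG9451 read 118, 121, 190.5 and 168, the lipase CG11608 near CG18530 read 132, 118, 52.2 and 92.6, and the prolyl 4-hydroxylase CG18233 next to CG18234 read 95.1, 65.8, 63.9 and 89.7. These 3 were respectively under 2-fold higher, lower, and without a common direction in both diets. Probes shared by near-identical gene copies would mix their signals, and no sequence was compared here.

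**Figure D4:**
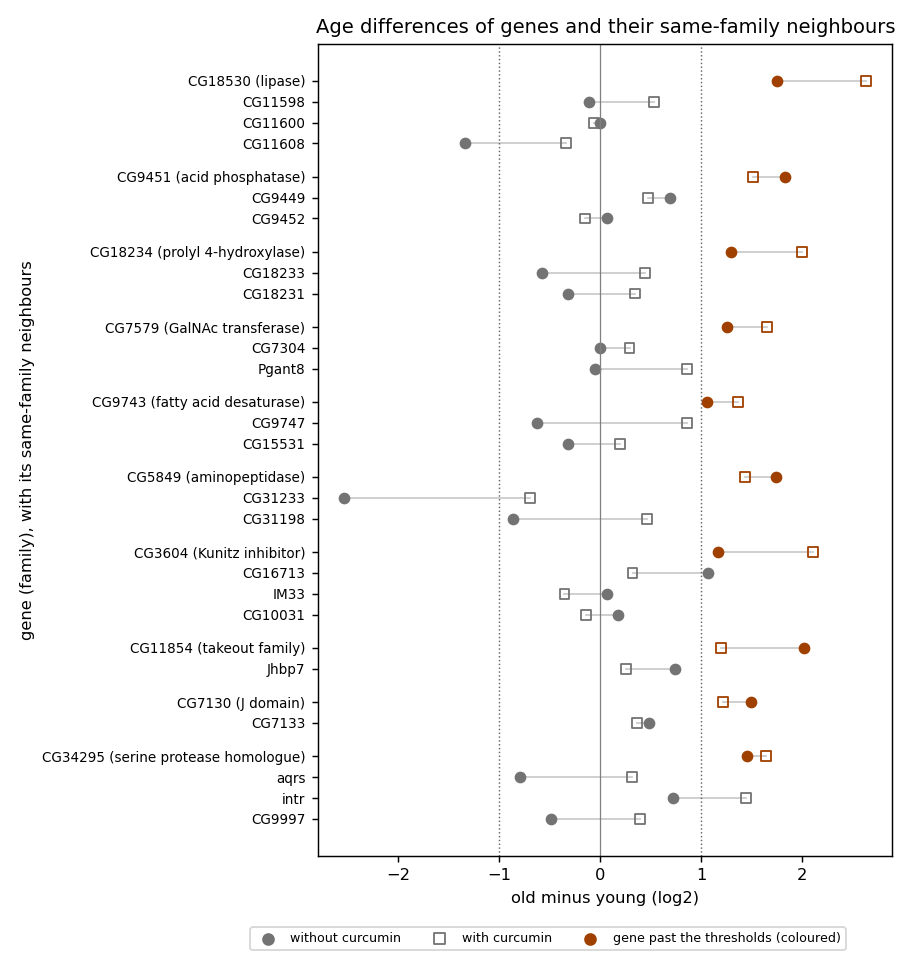
Old minus young log2 differences of 10 genes (coloured, family in brackets) and of same-family neighbours that are not among the 49 (grey), without curcumin (filled circles) and with curcumin (open squares). Dotted lines mark differences of -1 and 1. The grey marks run from -2.54 for CG31233 to 1.44 for intr. Those genes were listed after values were seen and without any of the 49, so nothing is read from their distance to the coloured marks.

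Counted over all genes, 45 of the 49 had a measured flanking gene, and in 5 of these (11.1%) such a neighbour passed the same thresholds, against 2.79% of 8753 genes of any name. They were CG32985 and CG32984 on arm 2L and CG7017 and CG6933, each pair counted from both sides, and CG18530 beside Not10. Both shares rest on the age differences that chose the genes, and they were not tested. CG32984 read 35.9, 57.1, 177 and 202 and CG32985 read 242, 213, 522 and 472, 4.92-fold and 3.54-fold higher for the first and 2.16-fold and 2.22-fold for the second. The gene table gives both the same former name, CG17789, so their signals may not be independent. By arm, 14 of the 49 were on 2L, 4 on 2R, 10 on 3L, 16 on 3R and 5 on the X chromosome. As shares of the 49 and of measured CG-named genes, these were 28.6% and 19.2% on 2L, 8.16% and 19.1% on 2R, 20.4% and 19.3% on 3L, 32.7% and 25.0% on 3R, and 10.2% and 16.6% on the X chromosome.

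For the other genes no family is stated. CG13313 read 34.3, 37.5, 122 and 181, 3.57-fold and 4.83-fold higher, and was higher with curcumin at both ages. CG7443 read 35.2, 31.9, 121 and 109, 3.45-fold and 3.41-fold higher. CG12947 was below the floor on both young arrays and read 64.3 and 75.6 in old flies, higher by at least 3.26-fold without and 3.84-fold with curcumin. The age difference was larger with curcumin for CG13313 and similar in the diets for CG7443. For CG12947 both values are lower bounds, so the diets cannot be ranked. CG10337 read 47.8, 27.3, 165 and 91.8, 3.46-fold and 3.36-fold higher, and CG17264 read 44.2, 26.3, 221 and 87.3, 4.99-fold and 3.32-fold higher. Both were lower with curcumin in young and in old flies. CG5080 read 506, 460.2, 1614 and 998, 3.19-fold and 2.17-fold higher, with the old array without curcumin well above the other old array. CG11131 read 38.7, 25.3, 93.0 and 105, CG31664 read 84.0, 35.0, 192 and 139, and CG34002 read 234, 98.6, 486 and 494. In these 3 genes the young array with curcumin was the lowest and the age difference with curcumin was the larger, at 4.13-fold, 3.98-fold and 5.01-fold against 2.40-fold, 2.29-fold and 2.08-fold.

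The remaining genes without a stated family were CG6688, CG7518, CG9839, CG10730, CG14695, CG14803, CG15385, CG17111, CG34136 and CG3770. CG6688 was 2.60-fold and 2.25-fold higher in old flies, without and with curcumin, CG7518 2.51-fold and 2.20-fold, CG9839 2.36-fold and 2.31-fold, and CG15385 2.53-fold and 2.09-fold. In those 4 the larger difference was without curcumin. CG14695 was 2.11-fold and 3.38-fold higher, CG34136 2.16-fold and 3.26-fold, CG17111 2.40-fold and 3.07-fold and CG14803 2.57-fold and 2.77-fold. There the larger difference was with curcumin. CG10730 (2.08-fold and 2.21-fold) and CG3770 (2.13-fold and 2.34-fold) differed little between the diets, as did CG9839 and CG14803 above.

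The age difference was larger with curcumin for 26 genes and smaller for 23, and the difference between the diets had a median of 0.04 log2, against 0.12 over 9443 genes compared in both diets, of which 60.8% had the larger value with curcumin. With each array centred on its median, 17 of the 49 had the larger value with curcumin. A gap of at least 1 log2 between the diets was seen for CG34002 alone, at 1.27. Next in order of a larger difference with curcumin were CG3604 (0.94), CG18530 (0.89), CG31664 (0.80) and CG11131 (0.78), and of a smaller one CG11854 (-0.82), CG16995 (-0.64), CG17264 (-0.59), CG5080 (-0.56) and CG32984 (-0.48). Of these CG16995 rests on the floor in young flies. The 3 genes below the floor on both young arrays were placed in these counts by their old arrays alone. The interaction of age and curcumin could not be tested, since it leaves no residual degree of freedom.

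The curcumin differences were not a threshold of the selection, but they come from the same 4 arrays, on each of which the thresholds set bounds. In young flies 41 of the 49 genes read lower on the array with curcumin, 5 higher and 3 were below the floor on both arrays. The median was -0.41 log2 over the 46 genes that could be compared and -0.38 with the other 3 counted as 0. Over all 9683 genes compared in young flies the median was -0.13 and 71.0% were lower, so the array with curcumin was lower as a whole. Centring each array on its median moved the median to -0.25 over the 49 genes and -0.01 for all genes, and those of old flies, given next, to -0.39 and -0.13. In old flies 38 of the 49 were lower with curcumin and 11 higher, with a median of -0.28, against -0.02 and 51.8% lower over 9618 genes. Counted together, 37 of the 46 genes that could be compared at both ages read lower with curcumin in each, and 39.0% of 9366 genes of any name did so. The young and the old pair share no array, but the 49 genes were selected on all 4 arrays. The values over all genes are therefore given as a description only.

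Lower signals with curcumin also prevailed among the 120 other-named genes past the same thresholds, of which 92 were lower at both ages. In young flies 107 of the 118 that could be compared read lower with curcumin (median -0.40) and 103 of the 120 did so in old flies (median -0.37). CG-named genes passing the mirrored thresholds, 51 genes at least 2-fold lower with age in both diets, had medians of the opposite sign, 0.29 in young flies and, over the 47 that could be compared, 1.03 in old flies. These side-by-side values come from arrays that also entered the age differences.

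**Figure D5:**
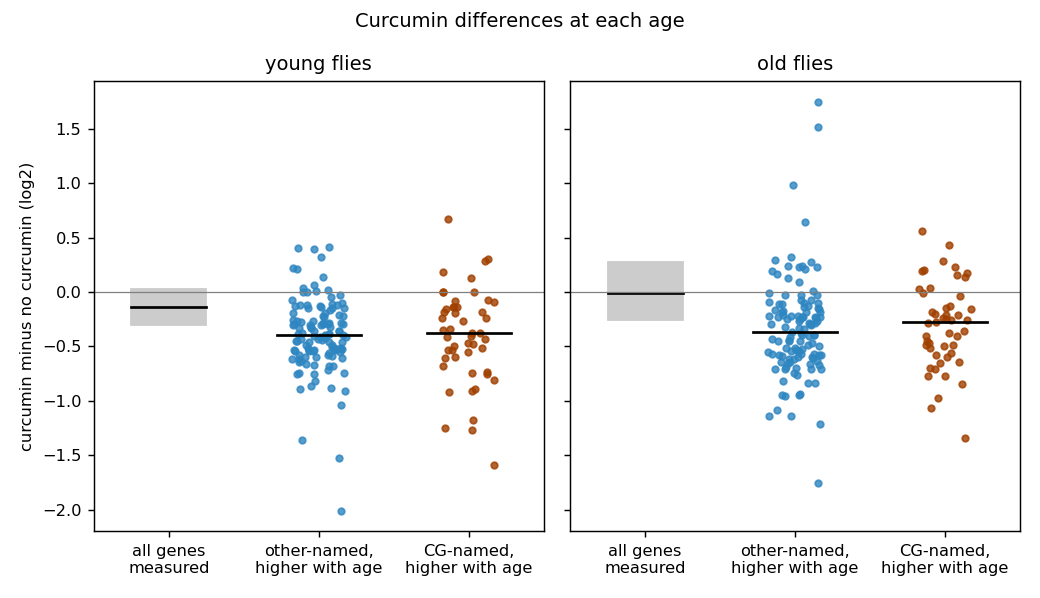
Log2 difference of the array with curcumin minus that without, in young flies (left) and old flies (right). Grey boxes span the quartiles of all measured genes, points are the 120 other-named and the 49 CG-named genes higher with age, and black bars are medians. Genes below the floor on both arrays of a pair are drawn at 0. Most brown points lie below 0 on both sides, with 41 lower in young and 38 lower in old flies.

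In young flies 4 of the 46 genes that could be compared (8.70%) were at least 2-fold lower with curcumin, where 0.62% of all genes were, and 0 were at least 2-fold higher, where 0.31% were. Of the 118 other-named genes past the same thresholds that could be compared, 3.39% were at least 2-fold lower. A low young array with curcumin raises the age difference with curcumin, which the selection used, so nothing is read from the share over all genes. The 4 CG-named genes were CG3604 (3.02-fold lower), CG31664 (2.40-fold), CG34002 (2.37-fold) and CG18530 (2.26-fold), followed by CG15117 (1.89-fold). Of these 4 genes CG34002 did not differ in the same way in old flies, where it read 486 without and 494 with curcumin. Highest with curcumin among the young were CG32984 (log2 0.67), CG6933 (at least 0.30), CG7298 (0.29), CG7381 (0.19) and CG13313 (0.13), all 5 also higher with curcumin in old flies.

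In old flies 2 of the 49 genes (4.08%) were at least 2-fold lower with curcumin, where 1.25% of all genes were. They were CG17264, 2.53-fold lower, and CG11854, 2.09-fold lower, followed by CG44774 (1.96-fold), CG10337 (1.80-fold) and CG2975 (1.71-fold). None of the 49 was at least 2-fold higher, where 5.22% of all genes were. Of the 120 other-named genes past the same thresholds, 4.17% were at least 2-fold lower and 1.67% at least 2-fold higher. The selection required a minimum signal on both old arrays and an age difference in both diets. That bore on these counts in advance, so nothing is read from the shares over all genes. Highest with curcumin among the 49 were CG13313 (log2 0.56), CG7298 (0.43), CG6933 (0.28), CG12947 (0.23) and CG7579 (0.21). In the same old pair the 7 measured antimicrobial peptide genes summed to 18529 without and 2150.0 with curcumin. Whether they bear on any of the 49 genes was not tested.

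The additive limma model, with age as the other term, gave the test of curcumin over both ages. At a Benjamini-Hochberg adjusted p below 0.05 it called 0 of 9536 genes (0%), with a smallest adjusted p of 0.793, and none of the 49 genes was called. An unadjusted p below 0.05 was seen for 364 genes, and 248 of these (2.6% of all) were lower with curcumin. Among the 49 genes 10 had an unadjusted p below 0.05, all of them lower with curcumin: CG3604, CG17264, CG31664, CG44774, CG10337, CG3770, CG7130, CG2975, CG5800 and CG31729. The estimate was -1.12 log2 (SE 0.29) for CG3604, -1.04 (SE 0.23) for CG17264, -0.86 (SE 0.19) for CG44774 and -0.83 (SE 0.18) for CG10337, each lower on both arrays with curcumin and each at a limma adjusted p of 0.793. With 4 arrays and 3 coefficients only 1 degree of freedom was left to each gene, so noise and any interaction of age and curcumin cannot be told apart. That degree of freedom is the gap between the age differences of the diets, and the selection used both age differences. The 10 genes are therefore listed as a description, and their number is not read against that of all genes.

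Near the thresholds, the members with least to spare were CG10000, CG5800 (log2 1.04 with curcumin) and CG34002 (1.05 without). Just outside lay CG8785, with 0.99 without and 1.73 with curcumin, CG1233 with 0.98 and 1.01, and CG13215 with 2.41 and 0.97. None of the 49 genes had a further single-gene probe set to compare with. CG43394 was left out although a probe set of it passed, because its other probe set, with the higher mean, differed by 0.18 and 0.16 log2 with age.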

How the data were processed

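Per the submitters' processing notes the authors used MAS5, the array maker's summary of a probe set, with the version not given in the sources used here. Values were deposited on a log2 scale, judged from their range of -4.67 to 13.4. No detection calls were used and no further scaling was applied. Of 18769 probe sets, 13646 named 1 gene and were used; 13543 of these matched the Release 6 gene table by gene number, and the probe set with the highest mean stood for a gene. Differences were taken after the floor of 4.3. The genes described, the lists and the comparisons were chosen with earlier results of these data known. Family neighbours and family roles were listed after values were seen. Every one of the 49 genes was named, and signals on all arrays were given for the 15 largest age differences, genes under the floor in young flies, the 5 largest curcumin and diet differences each way, and genes that share a family or position. The limma fit (3.58.1, R 4.3.3; lmFit, eBayes, Benjamini-Hochberg at 0.05) covered the 9536 measured genes. Pools have no replicates, so each gene's residual was only the gap between the age differences of the diets, not a spread between like arrays. Tested on simulated data of that size, the curcumin contrast found 1.49% of 67 genes set to 2-fold, 73.1% of 67 set to 4-fold and 92.4% of 66 set to 8-fold, along with 11 unchanged genes. In the simulated arrays no gene changed with age, and no curcumin change depended on age. The rates therefore do not say which changes the measured arrays could have missed. Alternatives were 3 other scalings, other floors, a pseudocount, the mean over probe sets, a 3-fold threshold and other limma settings. No gene or promoter sequences were used here.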

Additional observations from a re-analysis of the deposited data

Results flagged for a closer look

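CG34002 is singled out because its curcumin difference had opposite signs at the 2 ages and differed by more than 1 log2: -1.25 in young flies and 0.024 in old flies. The value in old flies is close to 0, each rests on 1 pair of arrays, and the difference between the ages was not tested.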

How the results depend on the processing

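The number of genes found was 42 with rescaled signals, 43 with quantile normalization (40 of the 49 shared), 61 with centring on each array's median (48 shared), 41 with the floor at 5.3, 35 with a pseudocount of 16 signal units and 50 with the mean over probe sets, and at a 3-fold threshold 15. The counts and medians that follow are over the same 49 genes in each setting. Genes at least 2-fold lower with curcumin numbered 1 in old and 2 in young flies with the pseudocount. Genes at least 3-fold lower numbered 0 and 1. Centring on the array median left 17 of the 49 with the larger age difference with curcumin. The median age difference with curcumin was 1.23 with the floor at 5.3 and 1.33 with the pseudocount. Over all scaling, floor and probe set settings 38 to 40 of the 49 genes read lower with curcumin in old flies and 32 to 42 in young flies (counts added after seeing the data), and the medians stayed between -0.39 and -0.26 in old and between -0.41 and -0.24 in young flies. limma called 0 genes for curcumin in each setting. The signal over background limits the genes below or near the floor in young flies, such as CG10000 and CG14803. Leaving out an array was not run, because each group has 1.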
